A study of Mus musculus with 48 samples.

Results

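The urea cycle genes studied here were 7 genes of the 20622 with RNA estimates, taken by symbol through a rule that uses no measured value. They were Cps1, Otc, Ass1, Asl and Nags, which encode enzymes of the cycle and the enzyme that makes its activator, and Slc25a15 and Slc25a13, which encode its mitochondrial carriers. All 7 also had a transcript among the 16269 with ribosome-protected fragment (RPF) counts, and all 7 passed the filter on low counts in every comparison.

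Livers of 4 genotypes were collected 4 or 10 days after tail-vein injection of AAV8.TBG.Cre, an adeno-associated vector in which the hepatocyte-restricted TBG promoter drives Cre recombinase. The genotypes were wild type (WT), Ctnnb1ex3/+ (B, in which Cre deletes exon 3 of 1 Ctnnb1 allele and stabilises β-catenin), R26-LSL-MYC (M, in which Cre switches on a MYC transgene at Rosa26) and Ctnnb1ex3/+; R26-LSL-MYC (BM). The labels give the virus to every mouse, WT included, and describe all mice as male and 2 to 4 months old. The study's methods restrict work to males at a low virus dose and for 1 Cre line, and report both sexes otherwise. Sex is therefore given here only as labelled. Each of the 8 combinations of genotype and day held 3 mice, and each of the 24 mice gave an RPF library and a cytoplasmic RNA library, 48 in all. The tissue was ground whole liver, so the RNA of cells that the virus did not reach, and of cells other than hepatocytes, was part of every library.

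The urea cycle turns ammonia and aspartate nitrogen into urea for excretion, and the liver is the organ that runs it in full. Its first steps, including carbamoyl phosphate and citrulline synthesis, take place in mitochondria and the remainder in the cytosol, so carriers move ornithine, citrulline and aspartate across the inner membrane. In the normal lobule, urea synthesis is concentrated in periportal (zone 1) hepatocytes and glutamine synthesis by Glul in a rim of pericentral (zone 3) hepatocytes with high WNT activity. Mutant β-catenin and MYC were placed in the same cells here to ask how WNT and MYC act together on the liver, and the urea cycle genes give a readout of a periportal hepatocyte function in that setting.

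The genes lie on 7 chromosomes (GRCm39). Nags (ENSMUSG00000048217, chr11:102036339-102040303, plus strand) encodes N-acetylglutamate synthase, which makes the essential activator of Cps1. Cps1 (ENSMUSG00000025991, chr1:67161988-67270418, plus strand) encodes carbamoyl phosphate synthetase, the rate-limiting first enzyme. Otc (ENSMUSG00000031173, chrX:10118503-10187265, plus strand) encodes ornithine transcarbamylase, which forms citrulline in the mitochondrion. Ass1 (ENSMUSG00000076441, chr2:31352181-31410862, plus strand) encodes argininosuccinate synthase, which adds aspartate to citrulline. Asl (ENSMUSG00000025533, chr5:130040099-130058088, minus strand) encodes argininosuccinate lyase, which releases fumarate and arginine. Slc25a15 (ENSMUSG00000031482, chr8:22865516-22889423, minus strand) encodes the mitochondrial ornithine carrier. Slc25a13 (ENSMUSG00000015112, chr6:6040252-6217294, minus strand) encodes citrin, the mitochondrial aspartate-glutamate carrier of liver. Footprints were counted on the coding sequence of 1 transcript per gene, which ran from 302 codons in Slc25a15 to 1501 in Cps1, stop codon included.

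Promoters are shown for the members that later went different ways in BM livers at day 10, so that a reader can set their upstream sequences side by side: Otc was lower than in WT, Ass1 and Slc25a15 were higher, and Slc25a13 moved little. Each line is the 250 bases before a RefSeq transcription start (GRCm38.p6), read 5′ to 3′ on the strand of the gene, with capitals marking matches to the letters searched. The windows are chrX:10252055-10252304 (plus strand) for Otc, chr2:31470020-31470269 (plus strand) for Ass1, chr8:22398278-22398527 (minus strand) for the downstream start of Slc25a15 and chr6:6217174-6217423 (minus strand) for Slc25a13.
Otc: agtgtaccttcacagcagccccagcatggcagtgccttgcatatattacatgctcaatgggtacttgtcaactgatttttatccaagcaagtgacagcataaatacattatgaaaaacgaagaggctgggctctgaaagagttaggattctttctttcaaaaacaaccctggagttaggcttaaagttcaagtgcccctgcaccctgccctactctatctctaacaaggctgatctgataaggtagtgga
Ass1: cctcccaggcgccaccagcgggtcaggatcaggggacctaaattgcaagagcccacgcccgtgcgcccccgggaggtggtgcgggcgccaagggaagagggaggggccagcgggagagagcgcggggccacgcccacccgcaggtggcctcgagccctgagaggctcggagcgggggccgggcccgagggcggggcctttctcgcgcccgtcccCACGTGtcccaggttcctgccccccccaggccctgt
Slc25a15: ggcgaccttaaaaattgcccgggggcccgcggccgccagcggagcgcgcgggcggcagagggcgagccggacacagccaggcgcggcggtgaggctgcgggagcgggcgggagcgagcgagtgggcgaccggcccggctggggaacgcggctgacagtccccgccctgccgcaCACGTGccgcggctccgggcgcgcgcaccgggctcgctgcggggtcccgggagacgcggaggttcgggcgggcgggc
Slc25a13: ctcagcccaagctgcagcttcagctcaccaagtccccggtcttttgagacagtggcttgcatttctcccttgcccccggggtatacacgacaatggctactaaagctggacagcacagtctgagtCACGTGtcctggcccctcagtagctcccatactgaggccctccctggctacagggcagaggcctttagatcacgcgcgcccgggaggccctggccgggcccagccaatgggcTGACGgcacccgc
The letters searched on both strands over 250 bases before and 50 after the start were CACGTG (the E-box bound by MYC and other basic helix-loop-helix factors), CTTTGA (the core of TCF/LEF sites), TTGCNNAA (C/EBP) and TGACG (the core of cAMP response elements), and no match overlapped another. CACGTG was in 3 of the 4 windows printed, at base -36 of Ass1, -77 of Slc25a15 and -125 of Slc25a13, and it occurs in 7.15% of the 32851 promoters of the table. The printed windows were picked by day 10 change, and the other Slc25a15 start was left out, so 3 of 4 cannot be read against that share. TGACG was found at base -13 of Slc25a13 and occurs in 20.8% of promoters. None of the 4 motifs was in the Otc window, where CTTTGA occurs in 16% of all promoters and TTGCNNAA in 10.8%. The windows also differed in composition, from 44.3% G and C in the Otc promoter to 79% in that of Slc25a15. The other start of Slc25a15 held none of them, and Nags, the remaining member with a window in the table, held CTTTGA on the opposite strand at base -203 and TGACG on the opposite strand at base 31 after the start. A match of letters is not evidence of binding, and no binding was measured.

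RPF libraries held 9742197 to 14380713 counts and RNA libraries 3254141 to 6540116. Values are given as normalised CPM (counts relative to the library total), scaled by edgeR's trimmed mean of M values (TMM), and translation efficiency (TE) as log2 of RPF CPM over RNA CPM in the same mouse. Changes are log2 fold changes ± SE from edgeR's quasi-likelihood test with 3 mice against 3, called at a Benjamini-Hochberg adjusted p under 0.1 over all genes tested, the level used in the study's methods. Comparisons with the same WT mice share those mice. Myc footprints were 43.7 to 164 CPM in M and BM mice against 2.42 to 18.2 CPM in WT, and Axin2, a WNT target, was at 6.18 to 28.5 CPM in B and BM mice against 1.54 to 3.51 CPM in WT and M mice. In whole liver, fewer cells of a type and less RNA per cell cannot be told apart.

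Among the libraries, 1 mouse stood far apart and another less so. BM mouse 1 at day 10 differed from BM mice 2 and 3 by a chi-square per degree of freedom of 149.6 and 176 over RPF counts, against 10.1 between mice 2 and 3. It held more Glul (3488 CPM against 2481 and 1625) and Axin2 (26.8 against 10.5 and 6.18) and less Got1 (639.8 against 4462 and 5136) in footprints than the other two. Counts for BM at day 10 are therefore also given without this mouse, an alternative chosen after seeing the data. M mouse 3 at day 10 differed from M mice 1 and 2 by 42.8 and 47.4, against 5.55 between those, and the M count by RPF is likewise given without it. Below, some refits are given without the share of all genes called in them. Their counts show only which member calls held and cannot be read against a background.

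The scaling also matters in these livers. TMM placed all genes of the mutants lower, relative to WT, than a plain share of total counts did. That shift was 0.44 on the log2 scale for RPFs and 0.56 for RNA in BM against WT at day 4, 0.36 and 0.39 at day 10. For B at day 10 it was 0.24 and 0.24, and for M at day 4 it was 0.24 and 0.38. Every member change against WT that passed the test kept its sign per total counts. Differences that did not pass could change sign, as those of 5 members did by RPF in M at day 10. Several day 4 differences in BM became small on that scale, however: for RNA, Slc25a15 was at -0.03 and Otc at -0.10, and for RPFs Slc25a15 was at -0.17 and Otc at -0.26. In B at day 10, the RPF differences of Cps1 and Ass1 likewise became small, at -0.14 and -0.15.

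In WT livers, Ass1 and Cps1 were among the most heavily translated genes. In footprints per counted codon, divided by length and scaled to 1 total in every library, and so comparable between genes, Ass1 led at day 4 with 2520 ± 196 (SD, n = 3), the 52nd highest of 16217 genes. Cps1 followed with 1215 ± 63.2. Otc was at 697 ± 61.0, Asl at 437 ± 32.6, Slc25a15 at 253 ± 38.8 and Slc25a13 at 132 ± 8.18. Nags was the lowest, at 45.0 ± 10.1 and rank 2374. The order was the same at day 10, and on both days the 3 WT mice of each gene did not overlap those of its neighbours in this order.

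By RNA, the leading pair was not separated. The TPM (RNA abundance per transcript length, from RSEM) of Ass1 and Cps1 in WT at day 4 were 864 and 846 on average, and the ranges over mice overlapped (745 to 957 and 737 to 952). Footprints per codon over TPM, with TPM rescaled over the same 16217 genes, was highest on the log2 scale for Asl (1.60 ± 0.03, SD, n = 3) and Ass1 (1.55 ± 0.14), which catalyse successive cytosolic steps. It was 1.29 ± 0.18 for Otc and 1.20 ± 0.14 for Slc25a15, and lowest for Nags (0.89 ± 0.06) and Cps1 (0.53 ± 0.14). TPM was summed over all isoforms of a gene, while footprints were counted on 1 transcript. That transcript held 35.3% to 39.5% of Asl TPM, 68.5% to 74.4% of Otc TPM and all TPM of the other members. The order depends on this choice, and the ratio to the counted transcript alone was not computed.

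The WT livers of the days were compared first. Between WT at day 10 and WT at day 4, edgeR called 0 of 7 members by RPF, where it called 4.44% of all genes in either direction. At an unadjusted p under 0.05 there was 1 member, where 1755 of 10899 genes were, and DESeq2 also called 1, in both cases Ass1. Its RPF CPM was 3123, 3434 and 3665 at day 4 and 4248, 4246 and 4568 at day 10, a log2 difference of 0.36 ± 0.12 (adjusted p = 0.158) although the mice did not overlap. By RNA, 0 members were called, where 2.32% of genes were. Cps1 was the 1 member under an unadjusted p of 0.05, where 1281 of 11026 genes were, and the 1 called by DESeq2 (edgeR 0.43 ± 0.15, adjusted p = 0.244). Its RNA was at 4503, 3844 and 4448 CPM at day 4 and at 6094, 5826 and 5325 CPM at day 10, and the mice did not overlap in RNA or in footprints. As a share of total counts, without TMM, the 7 genes took 0.524% to 0.575% of RNA in WT at day 4 and 0.723% to 0.844% at day 10, and 0.959% to 1.04% and 1.19% to 1.29% of footprints, again without overlap.

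**Figure D1:**
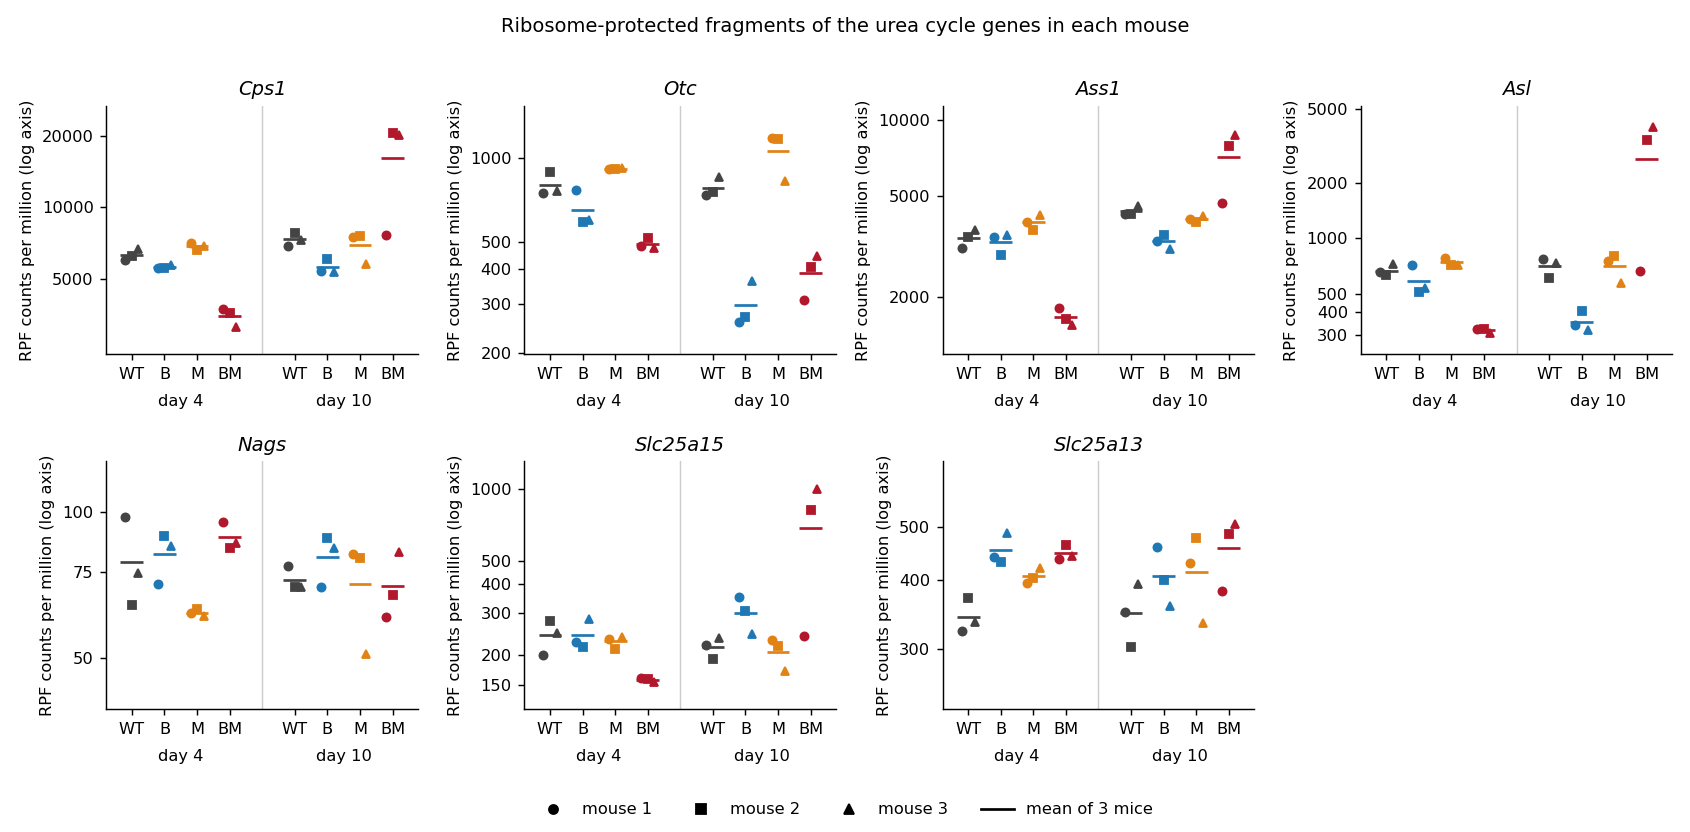
RPF CPM of the 7 urea cycle genes in each of the 24 mice (points; log axis), by genotype and day, with the mean of the 3 mice as a bar. Otc of B at day 10 lies at 259 to 365 CPM, below the WT mice at 741 to 855, and BM mice 2 and 3 at day 10 lie far above BM mouse 1 for Cps1, Asl and Slc25a15.

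In B livers at day 4, Slc25a13, the aspartate-glutamate carrier, rose, and the other 6 members did not pass the test. Slc25a13 footprints were 440, 431 and 487 CPM in B against 323, 371 and 336 in WT, without overlap (0.38 ± 0.09, 1.3-fold, adjusted p = 0.022). Thus 1 member rose, where 6.21% of all genes rose, and the median member was at -0.06 against -0.01 for all genes. Slc25a13 was also the 1 member that rose in RNA (0.47 ± 0.10, adjusted p = 0.0103), where 4.41% of genes rose. Otc (-0.31 ± 0.12, adjusted p = 0.156) and Asl (-0.20 ± 0.13, adjusted p = 0.412) were lower by RPF on average without passing, and without B mouse 1 both passed, which gave 3 called members. Without WT mouse 1, 0 members passed.

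At day 10, 4 enzymes, Cps1, Otc, Ass1 and Asl, fell in B livers, Otc the most of these. Otc footprints were 259, 270 and 365 CPM in B against 741, 755 and 855 in WT (-1.41 ± 0.16, 0.38-fold, adjusted p = 0.000762). Asl footprints were 341, 406 and 319 CPM against 772, 612 and 734 in WT (-1.01 ± 0.14, 0.50-fold, adjusted p = 0.002). For both of these enzymes, no B mouse reached the lowest WT mouse. The first and most abundant enzymes moved less. Cps1 was at 5420, 6075 and 5338 CPM in B against 6844, 7828 and 7300 in WT (-0.41 ± 0.13, adjusted p = 0.0636), and Ass1 at 3317, 3525 and 3092 against 4248, 4246 and 4568 (-0.42 ± 0.12, adjusted p = 0.0462). Per total counts, Cps1 was at -0.14 and Ass1 at -0.15 on the log2 scale.

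The ornithine carrier went the other way in the same B livers. Slc25a15 footprints were 352, 308 and 246 CPM in B at day 10 against 222, 193 and 236 in WT (0.45 ± 0.14, 1.37-fold, adjusted p = 0.0594), and the mice of both groups lay side by side without overlap. Nags (0.14 ± 0.12, adjusted p = 0.467) and Slc25a13 (0.20 ± 0.14, adjusted p = 0.357) did not pass. In all, 1 member rose (13.1% of all genes did) and 4 fell (12.1% of all genes did), with a median of -0.41 against 0.01 over all genes. Otc and Asl fell in every fit that left out 1 mouse, whereas the calls of Cps1, Ass1 and Slc25a15 did not hold in all of them: 2 members were called without B mouse 1, B mouse 2 or WT mouse 3.

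RNA gave the same picture for the large changes of B at day 10. Otc was at 207, 239 and 240 RNA CPM in B against 682, 623 and 655 in WT (-1.49 ± 0.14, adjusted p = 5.83e-05) and Asl fell by 0.89 ± 0.17 on the log2 scale (adjusted p = 0.00606). Slc25a15 rose by 0.48 ± 0.15 (adjusted p = 0.0677). By RNA, 1 member thus rose, where 8.14% of genes did, and 2 fell, where 7.48% did. Ass1 RNA did not differ detectably (-0.01 ± 0.18, adjusted p = 0.983), and its 3 values in B (1712, 1469 and 1095 CPM) spread around those of WT (1476, 1484 and 1397 CPM).

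The change of Otc in B thus grew between the days, and the difference between the day 10 and day 4 effects was itself tested. By RPF it was -1.10 ± 0.21 for Otc (adjusted p = 0.00545) and -0.81 ± 0.20 for Asl (adjusted p = 0.021). These 2 of 7 members were called as lower at day 10, where 8.83% of genes were, and no member was called as higher. By RNA the difference was called for Otc (-1.19 ± 0.16, adjusted p = 0.000351), 1 of 7 members, where 5.02% of genes were called lower.

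MYC alone had small effects on the pathway under TMM scaling. In M livers at day 4, Slc25a13 footprints were 395, 403 and 421 CPM against 323, 371 and 336 in WT (0.27 ± 0.08, 1.21-fold, adjusted p = 0.024). Otc footprints were 911, 914 and 921 CPM against 748, 889 and 761 (0.22 ± 0.08, adjusted p = 0.0661) and Ass1 footprints 3945, 3660 and 4222 against 3123, 3434 and 3665 (0.24 ± 0.09, adjusted p = 0.0672). The M mice lay above all WT mice for Slc25a13 and Otc, while M mouse 2 was just below WT mouse 3 for Ass1. These 3 members rose, where 18.5% of all genes did, and none fell. Without M mouse 3, 0 members passed, and without M mouse 1 or WT mouse 1 only Slc25a13 did.

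By RNA, Ass1 was raised more clearly than by RPF in M livers at day 4. Ass1 was at 1856, 1858 and 1750 RNA CPM in M against 1119, 1411 and 1175 in WT, with no overlap (0.58 ± 0.11, 1.50-fold, adjusted p = 0.00207). Slc25a13 RNA rose by 0.37 ± 0.09 (adjusted p = 0.00857). These were 2 members, where 13.5% of genes rose, and both were called in every fit that left out 1 mouse. Relative to total counts the M differences at day 4 were larger, at 0.37 to 0.49 by RPF for Cps1, Otc, Ass1, Asl and Slc25a13 and at 0.52 to 0.95 by RNA for the same genes. The 7 genes together took 0.830% ± 0.0220 of RNA counts in M against 0.543% ± 0.0279 in WT, and 1.32% ± 0.0113 of footprints against 1.00% ± 0.0428 (SD, n = 3).

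In M livers at day 10, edgeR called 0 of 7 members by RPF, where it called 19.4% of all genes in either direction, and 0 by RNA, where it called 15.7%. By RPF, 1 member had an unadjusted p under 0.05, where 3200 of 11300 genes did, and DESeq2 called 1, both Otc. Its footprints were 1183, 1168 and 826 CPM in M against 741, 755 and 855 in WT (0.43 ± 0.16, adjusted p = 0.123), so that M mouse 3 lay inside the WT range. Without M mouse 3, Otc (0.58) and Slc25a13 (0.38) both rose, where 12.9% of genes did. By RNA, 0 members had an unadjusted p under 0.05, where 2759 of 11143 genes did, and DESeq2 called 0. The difference between the M effects of the days was called for 0 members, where 1.18% of genes were called by RPF. There 1 member, Ass1, had an unadjusted p under 0.05, where 1447 of 11530 genes did, and DESeq2 called 0.

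In BM livers at day 4, most members were lower than in WT. The 4 enzymes Cps1, Otc, Ass1 and Asl fell together with the ornithine carrier, Slc25a13 rose and Nags did not pass. Asl footprints were 326, 323 and 309 CPM in BM against 655, 635 and 724 in WT (-1.06 ± 0.08, 0.48-fold, adjusted p = 2.59e-06). Ass1 footprints were 1816, 1634 and 1552 CPM against 3123, 3434 and 3665 (-1.02 ± 0.10, 0.49-fold, adjusted p = 1.07e-05). In both of these genes the highest BM mouse was below the lowest WT mouse by a wide margin.

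Cps1 fell from 6029, 6236 and 6661 CPM in WT at day 4 to 3716, 3596 and 3138 in BM (-0.85 ± 0.10, 0.56-fold, adjusted p = 4.37e-05). Otc fell from 748, 889 and 761 CPM to 486, 516 and 477 (-0.69 ± 0.09, 0.62-fold, adjusted p = 0.000111). Slc25a15 fell from 201, 280 and 248 CPM to 161, 159 and 154 (-0.61 ± 0.11, 0.66-fold, adjusted p = 0.000913). None of these overlapped between the groups. Slc25a13 rose from 323, 371 and 336 CPM to 438, 462 and 443 (0.39 ± 0.08, 1.31-fold, adjusted p = 0.00239). For Nags, BM mice were at 95.1, 84.4 and 86.1 CPM and WT mice at 97.7, 64.2 and 74.9 (0.17 ± 0.13, adjusted p = 0.316), the BM mice lying within the WT range.

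By count, 5 of 7 members fell and 1 rose in BM at day 4. Over all genes, 24.7% fell and 26.2% rose, and the median change was -0.69 for the members and -0.00 for all genes. RNA also gave 5 and 1, where 20.6% of genes fell and 21.3% rose: Asl -1.30 ± 0.09 (adjusted p = 1.16e-07), Ass1 -0.96 ± 0.13 (adjusted p = 5.14e-05) and Cps1 -0.93 ± 0.12 (adjusted p = 2.63e-05) were the largest. As a share of all footprints, the 7 genes together took 1.00% ± 0.0428 in WT and 0.764% ± 0.0505 in BM (SD, n = 3). As a share of RNA they took 0.543% ± 0.0279 and 0.446% ± 0.0295.

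BM livers were also compared directly with the single mutants at day 4. Against M, 5 members fell by RPF (19.3% of all genes did) and 1 rose (18.8% did). Ass1 was at -1.27 ± 0.10 (adjusted p = 3.01e-05) and Asl at -1.24 ± 0.07 (adjusted p = 6.76e-06). The member that rose was Nags, at 95.1, 84.4 and 86.1 CPM in BM against 61.8, 63.2 and 61.0 in M (0.49 ± 0.07, 1.40-fold, adjusted p = 0.000659). Against B, 5 members fell by RPF, where 21.5% of genes did, and none rose, where 23.2% did. There Ass1 was at -0.96 ± 0.11 (adjusted p = 0.000131), Asl at -0.86 ± 0.13 (adjusted p = 0.000563) and Otc at -0.38 ± 0.11 (adjusted p = 0.0263). By RNA, 5 members fell and Nags rose in both comparisons. Against M, 15.9% of genes fell and 14.6% rose, with Nags at 0.45 ± 0.10 (adjusted p = 0.0038), and against B 16.7% fell and 18.1% rose, with Nags at 0.40 ± 0.10 (adjusted p = 0.013).

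The effect of MYC therefore differed with the Ctnnb1 genotype, which was tested as the difference between BM against B and M against WT. At day 4 it was below 0 for 5 members by RPF, where 11.3% of genes were called so, with Ass1 at -1.21 ± 0.14 (adjusted p = 0.000191), Asl at -1.05 ± 0.15 (adjusted p = 0.00093) and Cps1 at -0.83 ± 0.12 (adjusted p = 0.000655). By RNA it was below 0 for 4 members, where 7.27% of genes were, and above 0 for 1, where 5.56% of genes were. That 1 member was Nags (0.57 ± 0.18, adjusted p = 0.0619). With all 24 mice in 1 fit, which shares 1 estimate of the spread, Ass1 alone was called by RPF, and Ass1 and Otc by RNA, while the RPF differences themselves were close to those above (Cps1 at -0.82 with adjusted p = 0.167 and Asl at -1.04 with adjusted p = 0.278). Ass1 footprints in M were thus 1.2-fold those in WT, and those in BM 0.52-fold those in B.

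**Figure D2:**
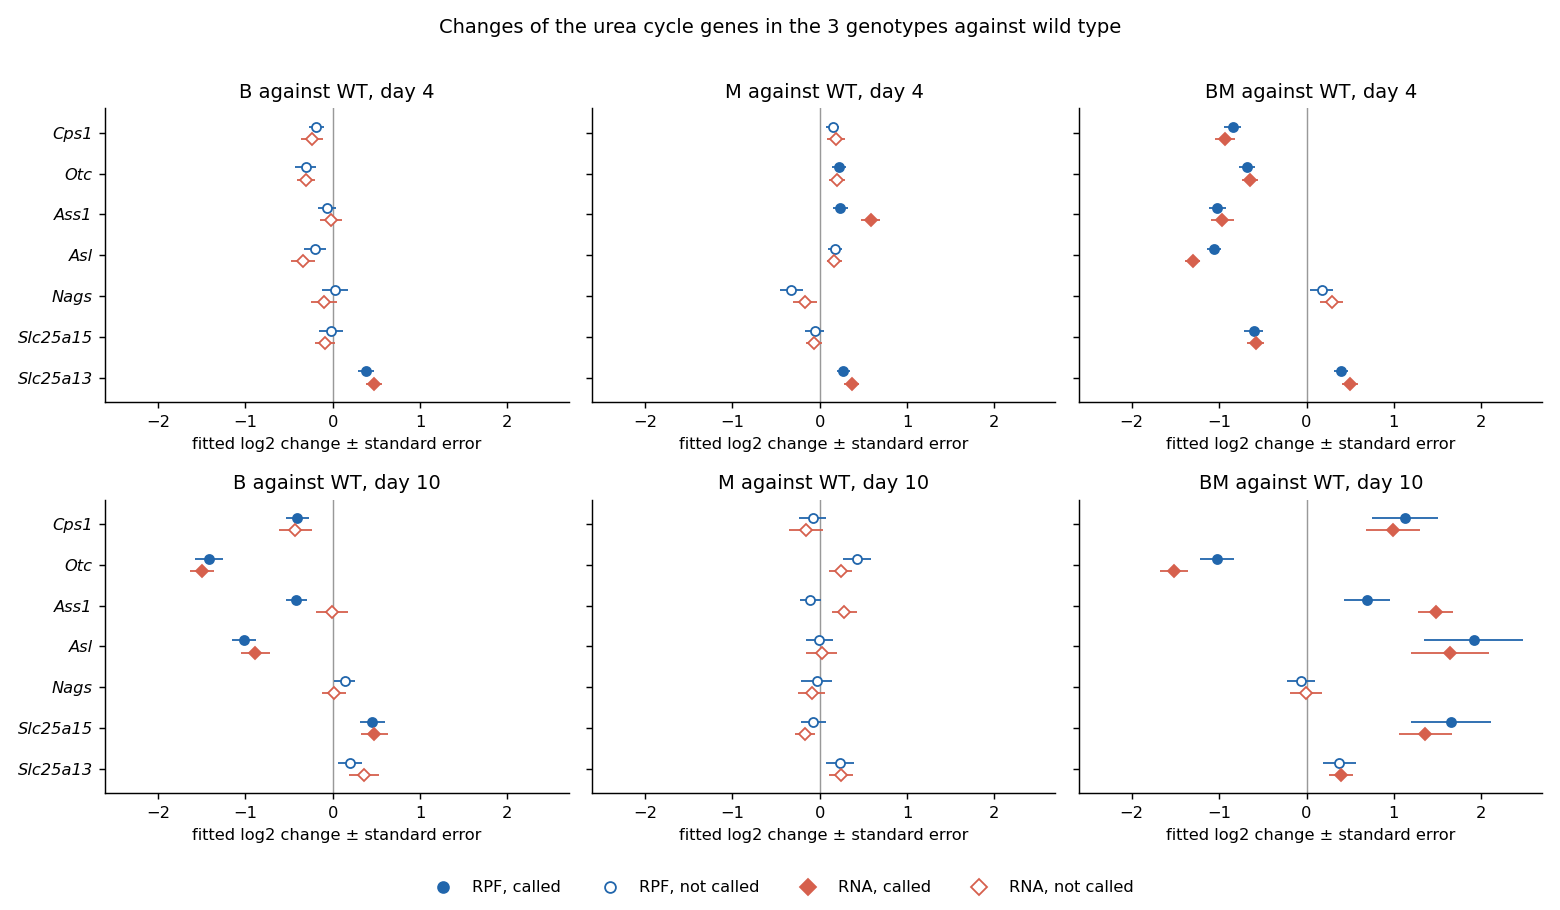
Log2 fold change ± SE against WT of the same day for the 7 genes in B, M and BM livers, by RPF and by RNA (edgeR, n = 3 against 3), with filled symbols for changes that passed the test. At day 4 of BM, 5 genes lie below 0 by 0.61 to 1.06 in RPFs, and at day 10 Otc stays below 0 while Asl reaches 1.91 and Slc25a15 1.65.

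In BM livers at day 10, 4 of the 5 members that had fallen at day 4 rose: Cps1, Ass1, Asl and Slc25a15. Asl footprints were 665, 3391 and 3994 CPM in BM against 772, 612 and 734 in WT (1.91 ± 0.57, 3.77-fold, adjusted p = 0.032). Slc25a15 footprints were 242, 817 and 1002 CPM against 222, 193 and 236 (1.65 ± 0.46, 3.14-fold, adjusted p = 0.0253). Cps1 footprints were 7679, 20553 and 20182 CPM against 6844, 7828 and 7300 (1.13 ± 0.37, 2.18-fold, adjusted p = 0.0476). BM mice 2 and 3 were far above WT in all of these, while BM mouse 1 lay inside the WT range for Asl and Cps1 and just above it for Slc25a15.

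Ass1 footprints were 4709, 7877 and 8704 CPM in BM at day 10 against 4248, 4246 and 4568 in WT (0.69 ± 0.26, 1.61-fold, adjusted p = 0.0732), with no overlap. Slc25a13 (382, 484 and 505 CPM against 350, 303 and 393, adjusted p = 0.144) and Nags (60.7, 67.4 and 82.6 CPM against 77.2, 70.0 and 70.2, adjusted p = 0.78) overlapped WT. Otc alone fell: its footprints were 311, 409 and 448 CPM in BM against 741, 755 and 855 in WT (-1.02 ± 0.19, 0.49-fold, adjusted p = 0.00586), and all 3 BM mice were below all WT mice.

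In count, 4 members rose by RPF in BM at day 10, where 24.5% of genes did, and 1 fell, where 22.3% did. The median member was at 0.69 and the median gene at 0.03. By RNA, 5 rose, where 22.9% of genes did, and 1 fell, where 22.8% did. The RNA changes were 1.64 ± 0.45 for Asl (adjusted p = 0.0199), 1.48 ± 0.20 for Ass1 (adjusted p = 0.000781), 1.36 ± 0.30 for Slc25a15 (adjusted p = 0.00858), 0.99 ± 0.31 for Cps1 (adjusted p = 0.0352), 0.39 ± 0.14 for Slc25a13 (adjusted p = 0.0541) and -1.51 ± 0.16 for Otc (adjusted p = 0.000214). Otc RNA was at 267, 219 and 201 CPM in BM and 682, 623 and 655 in WT.

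Without BM mouse 1, 5 members rose by RPF, where 33.4% of genes did, and 1 fell, where 32.9% did. Asl was then at 2.38 ± 0.16 (adjusted p = 6.33e-07), Slc25a15 at 2.06 ± 0.14 (adjusted p = 9.17e-07) and Cps1 at 1.47 ± 0.16 (adjusted p = 2.14e-05). Otc fell in this fit as well, by 0.88 ± 0.14 (adjusted p = 0.000259). By RNA 5 members rose, where 27.9% of genes did, and 1 fell, where 29.2% did. With mouse 1 kept and another mouse left out, 2 or 3 members passed by RPF. The fall of Otc and the rise of Slc25a15 passed in every such fit.

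**Figure D3:**
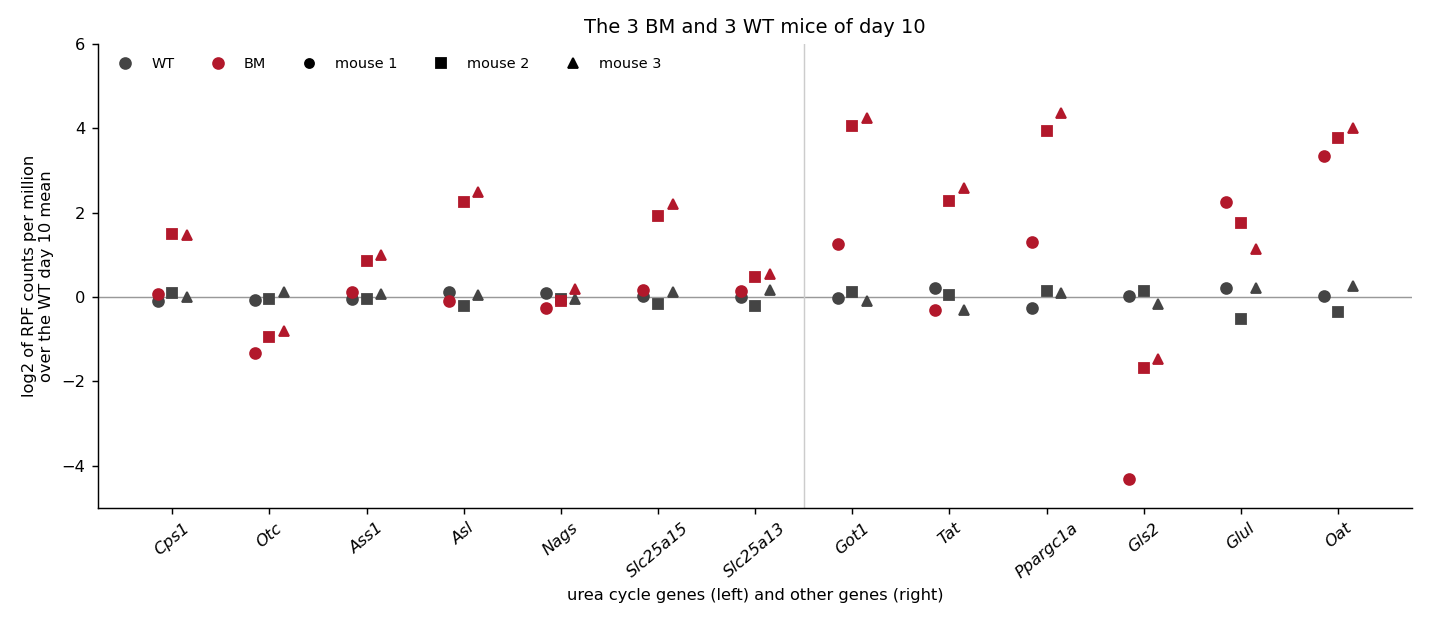
RPF of the 7 genes and of Got1, Tat, Ppargc1a, Gls2, Glul and Oat in each BM and WT mouse at day 10, as log2 over the WT mean of that day. BM mouse 1 lies at 0.07 for Cps1, 0.11 for Ass1 and -0.09 for Asl, where BM mice 2 and 3 lie at 1.46 to 1.49, 0.86 to 1.00 and 2.26 to 2.50.

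Against M at day 10, 4 members rose in BM by RPF, where 16.0% of genes did, and Otc fell, where 16.7% did. Otc was at -1.46 ± 0.24 (adjusted p = 0.00775), Slc25a15 at 1.72 ± 0.48 (adjusted p = 0.0431) and Asl at 1.91 ± 0.59 (adjusted p = 0.0567). Without BM mouse 2, BM mouse 3 or any 1 M mouse, Otc alone was called. When BM mouse 1 was dropped, 4 members again rose, where 30.5% of genes did, and Otc fell, where 28.6% did. Against B at day 10, 4 members rose by RPF, where 18.8% of genes did, and none fell, where 17.7% did. By RNA, 4 members rose and Otc fell against M, where 16.3% of genes rose and 16.6% fell, and 4 rose against B, where 16.1% did. These RNA counts were the same without BM mouse 1. Asl was 7.70-fold higher in BM than in B (2.95 ± 0.60, adjusted p = 0.0161). Leaving out BM mouse 1, 6 members rose against B, where 30.3% of genes did, and Otc (0.56 ± 0.17, adjusted p = 0.0251) and Slc25a13 (0.33 ± 0.13, adjusted p = 0.0638) were the additions. With all 3 BM mice, Otc was not separated between BM and B (0.41 ± 0.22, adjusted p = 0.195), and its RNA differed by 0.00 ± 0.17 (adjusted p = 0.992). Otc was thus low in both genotypes that carry Ctnnb1ex3/+, at 298 ± 58.1 CPM in B and 389 ± 70.4 CPM in BM (SD, n = 3), against 784 ± 62.6 in WT and 1059 ± 202 in M.

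The reversal between days was tested as the difference of the BM effects. It was above 0 for 4 of 7 members by RPF, where 17.2% of genes were called so: 2.98 ± 0.62 for Asl (adjusted p = 0.00467), 2.27 ± 0.51 for Slc25a15 (adjusted p = 0.00713), 1.98 ± 0.40 for Cps1 (adjusted p = 0.00395) and 1.72 ± 0.28 for Ass1 (adjusted p = 0.00105). Without BM mouse 1 of day 10 the same 4 were called, where 25.8% of genes were. By RNA the same 4 were above 0, where 13.4% of genes were, and Otc was below 0 (-0.87 ± 0.17, adjusted p = 0.003), where 16.6% were. Without that mouse these RNA counts were again 4 and 1, where 19.7% and 23.8% of genes were called.

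At day 10 the difference between BM against B and M against WT was above 0 by RPF for 3 members, where 4.79% of genes were called so: Asl (2.90 ± 0.64, adjusted p = 0.0272), Cps1 (1.59 ± 0.42, adjusted p = 0.0474) and Ass1 (1.19 ± 0.28, adjusted p = 0.0326). The same 3 were called by RNA, where 3.59% of genes were. Without BM mouse 1, Slc25a15 was added in both, where 17.4% of genes were called by RPF and 10.9% by RNA.

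Proportions within the cycle shifted accordingly. Per 100 footprint CPM of Cps1, WT livers at day 10 held 10.7 ± 1.04 of Otc (SD, n = 3), B livers 5.35 ± 1.29, M livers 15.1 ± 0.757 and BM livers 2.75 ± 1.13. The BM mice ranged from 1.99 to 4.05 and the WT mice from 9.64 to 11.7, so that BM mouse 1 shared the low ratio although its Cps1 did not stand out. Slc25a15 per 100 of Otc, the ornithine carrier over the enzyme that uses ornithine, was 27.7 ± 2.14 in WT, 106 ± 35.0 in B and 167 ± 78.4 in BM at day 10. These ratios compare CPM of genes of different length and are read only across groups.

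**Figure D4:**
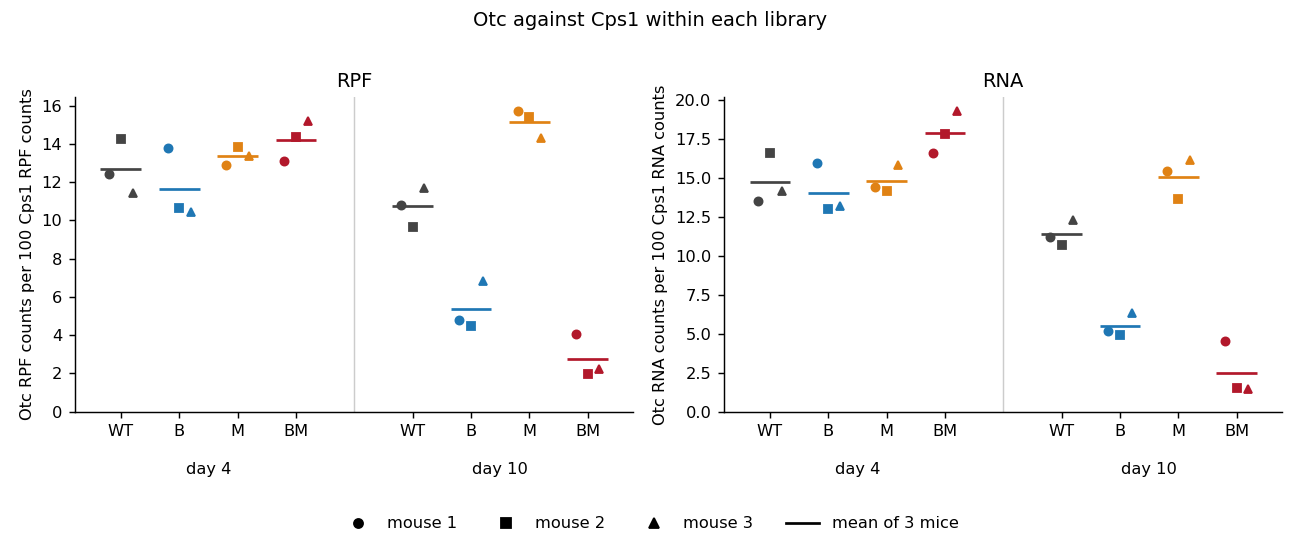
Otc footprints per 100 Cps1 footprints (CPM ratio) in each mouse by genotype and day, and the same ratio of RNA counts, with group means as bars. In footprints at day 10 the 3 BM mice lie between 1.99 and 4.05 and the 3 B mice between 4.45 and 6.83, below the lowest WT mouse at 9.64.

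The 7 genes together took 3.12% ± 1.25 of all footprints in BM livers at day 10 (SD, n = 3), at 1.68%, 3.89% and 3.79% in the 3 mice, against 1.23% ± 0.0519 in WT. As a share of RNA counts they took 2.12% ± 0.736 and 0.793% ± 0.0628. All BM mice were above all WT mice in both. Per codon, Ass1 reached rank 6 of 16217 genes in BM at day 10 (6941 ± 1628, SD, n = 3) and Cps1 rank 24 (4081 ± 1679), while Otc moved to rank 453 from 217 in WT.

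Changes in footprints followed changes in RNA for nearly every member. Both libraries came from the same mice. Of the 42 pairs of a member and a comparison with WT, 39 had the same sign in RPF and RNA, and this held for 12 of the 12 pairs in which both changes were above 0.5 in size. For translation efficiency itself, edgeR's test of TE called 0 members in any of the 6 comparisons with WT, and DESeq2 called 0. The background was as low: at day 4, 0.0488% of genes changed TE in either direction in B, 0.971% did in M and 2.23% did in BM, and at day 10 the shares were 0.0564%, 0% and 0.259%. At an unadjusted p under 0.05 there was 1 member in M at day 4, 1 in M at day 10 and 1 in BM at day 10, each time Ass1, and 0 in the others. Over all genes, 758 of 10405 were under it in M at day 4, 334 of 10453 in M at day 10 and 1042 of 10431 in BM at day 10.

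In the main fits, the TE of Ass1 and of Slc25a13 was below WT in every mutant group, from -0.16 to -0.01 for Slc25a13. The Slc25a13 differences all missed the threshold. Over the alternative fits they crossed 0 in M (-0.08 to 0.05) and in BM (-0.12 to 0.11) at day 10. For Ass1 the main TE change was -0.04 in B and -0.07 in BM at day 4. Over the alternatives it crossed 0 in both (-0.15 to 0.04 and -0.18 to 0.03), so the direction of these Ass1 changes was not stable. Its log2 TE was 1.48, 1.28 and 1.64 in WT at day 4 and 1.09, 0.98 and 1.27 in M, a difference of -0.34 ± 0.14 (adjusted p = 0.597) without overlap of the mice. At day 10 it was 1.52, 1.52 and 1.71 in WT and 0.66, 0.74 and 0.93 in BM (-0.81 ± 0.34, adjusted p = 0.466), again without overlap. In that group Ass1 footprints were higher than in WT by 0.69 and Ass1 RNA by 1.48. The log2 TE of Ass1 at day 10 was 0.95, 1.26 and 1.50 in B and 1.09, 1.23 and 1.40 in M, also all below WT (adjusted p of 1 in both).

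The design pairs the libraries, since both come from the same mouse, and a fit with each mouse as a block called Ass1. In that fit Ass1 TE fell in BM at day 10 by 0.84 ± 0.16 (adjusted p = 0.0299), where 2.83% of genes fell, and in M at day 4 by 0.35 ± 0.10 (adjusted p = 0.0838), where 0.903% did. It rose in BM against M at day 4 by 0.28 ± 0.08 (adjusted p = 0.0844), where 1.37% did. The difference of the BM effects between days was -0.74 ± 0.19 (adjusted p = 0.0746), where 1.21% of genes were called lower. Each of these comparisons has 1 member called with the block and 0 in the main fit.

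For Otc, TE was higher on average in BM at day 10. Its log2 TE was 0.12, 0.28 and 0.39 in WT and 0.22, 0.90 and 1.16 in BM (0.47 ± 0.24, adjusted p = 0.552), with BM mouse 1 inside the WT range. Without that mouse, the TE of Otc rose by 0.75 ± 0.17 (adjusted p = 0.00928), where 10.4% of genes rose, and that of Ass1 fell by 0.75 ± 0.18 (adjusted p = 0.0155), where 11.1% fell. The other 5 members did not pass in this fit.

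**Figure D5:**
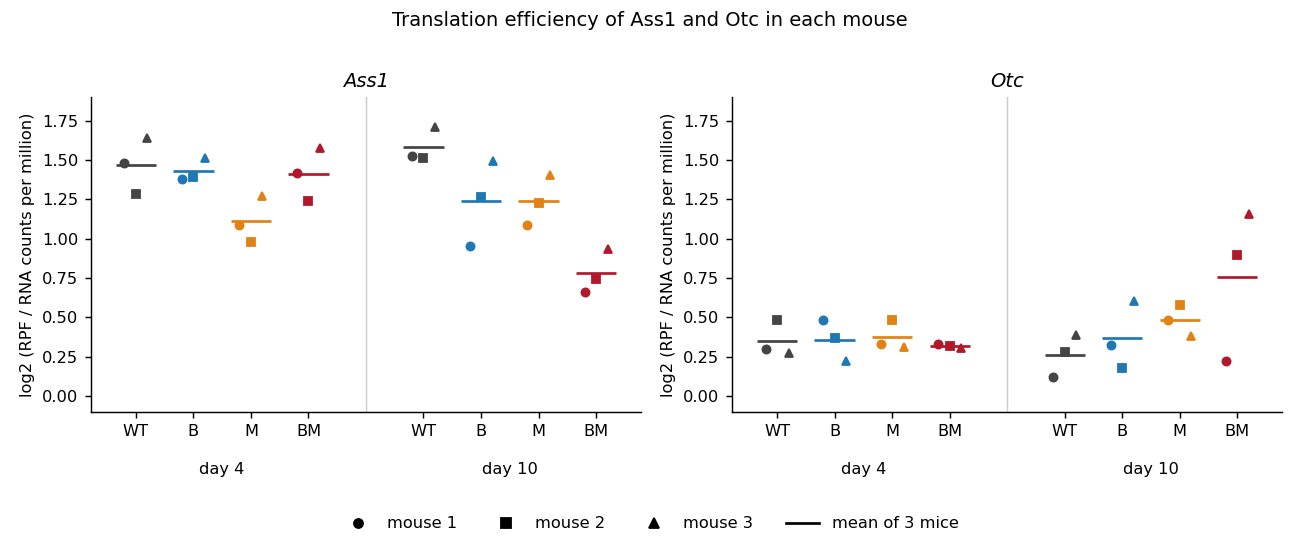
Log2 TE (RPF CPM over RNA CPM of the same mouse) of Ass1 and Otc in each mouse by genotype and day, with group means. For Ass1 at day 10, the BM mice lie at 0.66 to 0.93 and the WT mice at 1.52 to 1.71, and for Otc BM mouse 1 lies at 0.22, inside the WT range of 0.12 to 0.39.

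Genes that feed the cycle or take nitrogen past it were read from lists drawn up for this pathway. Their counts stand against the shares of all genes given above for BM, 26.2% that rose and 24.7% that fell at day 4 and 24.5% and 22.3% at day 10, and against 33.4% and 32.9% at day 10 without BM mouse 1. Of 12 genes of ammonia and glutamine handling, 5 rose and 4 fell by RPF in BM at day 4 and 8 rose and 2 fell at day 10 (median 1.12 at day 10, against 0.03 for all genes). Glul, which fixes ammonia into glutamine, rose by 2.27 ± 0.10 at day 4 (adjusted p = 7.21e-08) and by 1.77 ± 0.33 at day 10 (adjusted p = 0.00567). Rhbg, an ammonia transporter, rose by 4.44 ± 0.40 at day 10 (adjusted p = 0.00034), and Slc1a2, a glutamate transporter, by 4.00 ± 0.26 (adjusted p = 0.000115). Gls2, the liver glutaminase that supplies ammonia to Cps1, fell by 2.07 ± 0.60 (adjusted p = 0.0303), from 380, 415 and 334 CPM in WT to 19.0, 117 and 136 in BM. Glud1, glutamate dehydrogenase, fell by 1.25 ± 0.33 at day 10 (adjusted p = 0.0202). Leaving out BM mouse 1 gave 7 that rose and 3 that fell.

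Of 16 genes of ornithine, arginine and aspartate supply, 13 could be tested in BM at day 4, where 8 rose and 4 fell, and 14 at day 10, where 9 rose and 1 fell (median 1.29). Oat, ornithine aminotransferase, which links ornithine with glutamate and is pericentral in the normal lobule, rose by 3.72 ± 0.28 at day 10 (adjusted p = 0.000174), from 425 to 646 CPM in WT to 5503 to 8771 in BM. Got1, the cytosolic aspartate aminotransferase, was at 264, 293 and 250 CPM in WT and 640, 4462 and 5136 in BM (3.65 ± 0.68, adjusted p = 0.00583), after a fall of 1.46 ± 0.11 at day 4 (adjusted p = 2.76e-06). Fh1, fumarase, which takes up the fumarate that Asl releases, turned with it, from -0.38 ± 0.08 at day 4 (adjusted p = 0.00237) to 1.64 ± 0.43 at day 10 (adjusted p = 0.02). Gatm, which uses arginine for creatine synthesis, fell by 1.18 ± 0.24 (adjusted p = 0.00826). When BM mouse 1 was left out, 10 of these genes rose and 2 fell.

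Of 8 genes through which amino acid nitrogen enters, 1 rose and 6 fell in BM at day 4 (median -0.98), and 4 rose and 1 fell at day 10 (median 0.60). Agxt, which transfers amino groups from alanine to glyoxylate, fell by 1.40 ± 0.11 at day 4 (adjusted p = 2.37e-06) and by 0.52 ± 0.16 at day 10 (adjusted p = 0.0344). Gpt, the cytosolic alanine aminotransferase, fell by 0.44 ± 0.10 at day 4 (adjusted p = 0.00361) and rose by 0.68 ± 0.18 at day 10 (adjusted p = 0.0206). Gpt2, a mitochondrial alanine aminotransferase, was at 0.17 ± 0.09 at day 4 (adjusted p = 0.142) and rose by 1.9 ± 0.28 at day 10 (adjusted p = 0.00234). Hal, histidine ammonia-lyase and a periportal gene, was at -2.93 ± 0.13 at day 4 (adjusted p = 1.01e-07) and at -2.13 ± 0.92 at day 10 (adjusted p = 0.102). In the fit that left out BM mouse 1, 6 of the 8 rose at day 10 and 2 fell.

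Of 11 regulators of the pathway, 2 rose and 5 fell in BM at day 4, and 4 rose and 4 fell at day 10. Ppargc1a, a coactivator of the fasting response, rose at day 10 by 3.67 ± 0.69 (adjusted p = 0.00597), from 9.29, 12.4 and 11.9 CPM in WT to 27.5, 172 and 231 in BM. Foxo1, a transcription factor that insulin restrains, rose by 1.34 ± 0.32 (adjusted p = 0.015). Cebpa, which maintains urea cycle gene expression in liver, fell by 1.47 ± 0.19 (adjusted p = 0.00156), and Gcgr, the glucagon receptor, by 2.3 ± 0.36 (adjusted p = 0.00298). These counts were 5 and 4 without BM mouse 1.

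In B at day 10, where 13.1% of all genes rose and 12.1% fell, 4 of the 12 ammonia and glutamine genes rose and 1 fell, 8 of 13 tested supply genes rose and 1 fell, and 2 of 8 entry genes rose and 4 fell. Gls2 fell by 3.65 ± 0.28 (adjusted p = 0.000132) and Hal by 5.42 ± 0.38 (adjusted p = 8.68e-05), while Oat rose by 3.22 ± 0.26 (adjusted p = 0.000157). In M at day 4, where 18.5% of all genes rose and 14.7% fell, 3 ammonia and glutamine genes rose and 1 fell, 8 of 13 supply genes rose and 1 fell, and 4 entry genes rose and 1 fell. At day 10 in M, where 10.6% of all genes rose and 8.80% fell, these counts were 1 and 2, 1 and 0, and 1 and 0. The supply genes that rose in M at day 4 included Got1 (0.47 ± 0.14, adjusted p = 0.0371) and Slc25a12, the second aspartate-glutamate carrier (0.47 ± 0.10, adjusted p = 0.00815).

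Zone markers moved alongside these changes. Marker counts, like those of the lists above, stand against the shares of all genes called in the same comparison. By RPF, 26.2% rose and 24.7% fell in BM at day 4, 24.5% and 22.3% in BM at day 10 (33.4% and 32.9% without BM mouse 1), 13.1% and 12.1% in B at day 10, 18.5% and 14.7% in M at day 4, and 10.6% and 8.80% in M at day 10. The marker lists hold no urea cycle member, but Gls2, Hal, Sds and Gpt are also zone 1 markers here, Glul, Oat, Slc1a2, Rhbg and Tbx3 zone 3 markers, and Tat and Hnf4a hepatocyte markers. Of 12 zone 1 markers, 11 fell and 1 rose in BM at day 4, 9 fell and 0 rose in B at day 10, and 6 fell and 2 rose in BM at day 10. Of 12 zone 3 markers, 11 rose and 1 fell in BM at day 4, 10 rose and 0 fell in B at day 10, and 8 rose and 1 fell in BM at day 10. The summed RPF of the zone 1 list was 7267 to 9376 CPM in WT at day 4 and 1662 to 1869 in BM. It was 6237 to 6520 CPM in WT at day 10 and 1411 to 1848 in B. In BM at day 10 it was 1736 in the lowest mouse and 5605 and 6692 in the others, the low mouse being mouse 1. The zone 3 sum was 8494 to 9074 CPM in WT and 16436 to 19676 in BM at day 4, and it was 6461 to 11182 CPM in WT at day 10, 17499 to 27281 in B and 19483 to 22646 in BM. Of 10 hepatocyte markers, 10 fell in BM at day 4, and 7 fell and 1 rose at day 10, with sums of 104497 to 119430 CPM in WT and 47048 to 55967 in BM at day 4, and of 100067 to 126255, 57082 to 63566 and 39549 to 45760 in WT, B and BM at day 10. In M the hepatocyte sum was also below WT, at 65279 to 82567 CPM at day 4 and 56319 to 65248 at day 10, and 10 and 7 of these markers fell, while no urea cycle member fell on either day. The zone 1 sum in M was likewise below all WT mice, at 6271 to 6537 CPM at day 4 and 4314 to 6159 at day 10. In B at day 4 the zone 1 sum was 4043 to 6140 CPM, below all WT mice, and the zone 3 sum 18817 to 23883, above all WT mice. The hepatocyte sum of B at day 4 (82994 to 100730 CPM) and the zone 3 sum of M at day 4 (8074 to 8407) were below all WT mice as well. Without BM mouse 1, 5 zone 1 markers rose at day 10 and 7 fell, 7 zone 3 markers rose and 3 fell, and 2 hepatocyte markers rose and 7 fell. The part of zonal and hepatocyte genes in the urea cycle changes was not tested.

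Other cell types were read from the same kind of lists. Of 8 Kupffer cell and macrophage markers, 7 fell in BM at day 4 and 3 rose at day 10, with sums of 743 to 864 CPM in WT and 430 to 459 in BM at day 4, and 599 to 832 and 967 to 1043 at day 10. Of 6 endothelial markers, 5 fell at day 4, and 3 fell and 1 rose at day 10, with sums of 704 to 794 CPM in WT and 566 to 635 in BM at day 4, and 707 to 839 and 603 to 737 at day 10. Of 6 stellate cell markers, 4 fell at day 4 and 5 at day 10, with sums of 659 to 719 CPM in WT and 435 to 526 in BM at day 4, and 719 to 818 and 433 to 621 at day 10. Of 4 cholangiocyte markers tested, 3 fell at day 4 and 1 at day 10, with sums of 85.2 to 133 CPM in WT and 36.2 to 54.1 in BM at day 4, and 43.7 to 83.7 and 35.6 to 63.5 at day 10. Of the blood and neutrophil markers, 4 of 4 tested fell at day 4 and 1 of 5 rose at day 10, with sums of 369 to 383 CPM in WT and 173 to 240 in BM at day 4, and 365 to 430 and 219 to 791 at day 10. Without BM mouse 1 at day 10, 6 Kupffer cell and macrophage markers rose, 2 endothelial markers rose and 3 fell, 5 stellate and 2 cholangiocyte markers fell, and 3 blood and neutrophil markers rose. In M at day 4, sums were below all WT mice for endothelial (536 to 684 CPM), stellate (537 to 625), cholangiocyte (43.8 to 62.7) and blood and neutrophil markers (173 to 286), and the Kupffer cell and macrophage sum was 476, 647 and 1314 CPM from the lowest mouse to the highest, the last above all WT mice. In M at day 10, sums were below all WT mice for endothelial (535 to 588 CPM), stellate (539.8 to 619) and blood and neutrophil markers (205 to 308). In B at day 4, the Kupffer cell and macrophage sum (601 to 702 CPM) and the cholangiocyte sum (59.8 to 63.6) were below all WT mice. In B at day 10, stellate sums were 396 to 562 CPM, below all WT mice, with 5 of 6 markers that fell, and blood and neutrophil sums were 530.3 to 817 CPM, above all WT mice, with 2 of 5 that rose. In the same livers 3 endothelial markers fell and 1 Kupffer cell and macrophage marker rose. No marker of these lists was at 0 in the footprints of any group. Their part in the results was not tested.

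Genes most like each member in their footprint pattern were found as those with the smallest root mean square difference of centred log2 RPF CPM over the 24 mice, among 11999 genes. Cps1 and Ass1 were each the nearest gene of the other (0.194), and Asl had Cth (0.363) and then Cps1 (0.372). Slc25a15 was nearest to Fh1 (0.187) and Aass (0.198), with Cps1 as its nearest member at rank 35. Otc was nearest to Cyp3a25 (0.207) and Gldc (0.257), and its nearest member, Slc25a13, was at 0.692 and rank 4914. Nags was nearest to Upf1 (0.149) and Slc25a13 to Hadhb (0.106). These distances describe the 24 mice, which share groups, and carry no test.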

How the data were processed

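Ribosome profiling and paired cytoplasmic RNA sequencing of 24 mouse livers were used. For RPFs, the authors removed adapters with cutadapt (version 1.18 in the submitters' processing notes), collapsed reads by molecular identifier, aligned them to the most abundant transcript of each gene (GENCODE vM27) and deposited counts per coding sequence, in which the initial 20 codons and the final 10 were not counted. For RNA, the authors deposited expected counts, TPM and the percent of each isoform from RSEM 1.3.3 with Bowtie2 2.3.5.1. FPKM and effective lengths, 2 further kinds of column, were not used.

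Members and lists were chosen with earlier results of these data known, and 1 gene of the rule is not reported here. All 7 members and the nitrogen genes listed for their roles may be named, along with check genes, cell type markers and the 3 nearest genes of each member. RPF transcripts absent from a library (1689 to 3019 of 16269) were taken as 0. Expected counts were summed per gene and rounded, and at least 99.92% were whole within 0.005. Symbols came from GENCODE vM39, which matched 20614 of 20622 genes. RPF and RNA were fitted separately in R 4.3.3 with edgeR 4.0.16 (filterByExpr with a minimum count of 10 and a total of 15, TMM, quasi-likelihood test, prior count 2, limma 3.58.1 for contrasts), on the groups of each comparison, with Benjamini-Hochberg adjustment over all genes and a threshold of 0.1. TE was tested as the interaction of library kind and group in 1 model over both kinds of library. Coding lengths came from vM39, and that of Slc25a13 from its longest coding transcript because the counted one had no entry there.

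The RPF and RNA libraries of a mouse deviated together from their group means (correlation 0.156 to 0.605, median 0.378, and 24 of 24 mice correlated best with their own library), so a fit with the mouse as a block is given beside TE. Alternatives were DESeq2 1.42.0, RLE size factors, other filters, a threshold of 0.05, all 24 mice in 1 fit, the replicate number as a block, the RNA of the counted isoform and leaving out each mouse. The fitting step was tested on simulated counts built from the BM and WT libraries of day 4, with less spread than the BM fits of day 10. The other steps were not tested in this way. Promoters and their starts are RefSeq's on GRCm38.p6, and gene coordinates are on GRCm39. Intervals are not given for single counts, which were at least 158 per member and library.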

Additional observations from a re-analysis of the deposited data

Results flagged for a closer look

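The effects below differed between groups by a test of the difference itself (edgeR's interaction term, Benjamini-Hochberg adjusted over all genes), given as log2 differences ± SE. The difference between the BM effect at day 10 and at day 4 by RPF was 1.98 ± 0.40 for Cps1, 1.72 ± 0.28 for Ass1, 2.98 ± 0.62 for Asl and 2.27 ± 0.51 for Slc25a15. By RNA it was 1.92 ± 0.35 for Cps1, -0.87 ± 0.17 for Otc, 2.44 ± 0.25 for Ass1, 2.94 ± 0.49 for Asl and 1.94 ± 0.34 for Slc25a15. The sign of Otc RNA was opposite to that of the others.

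For the B effect, the same difference was -1.10 ± 0.21 for Otc and -0.81 ± 0.20 for Asl by RPF, and -1.19 ± 0.16 for Otc by RNA.

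The MYC effect with mutant β-catenin less that without it was negative at day 4. By RPF it was -0.83 ± 0.12 for Cps1, -0.62 ± 0.14 for Otc, -1.21 ± 0.14 for Ass1, -1.05 ± 0.15 for Asl and -0.55 ± 0.16 for Slc25a15. By RNA it was -0.86 ± 0.16 for Cps1, -0.52 ± 0.13 for Otc, -1.51 ± 0.17 for Ass1 and -1.11 ± 0.17 for Asl, with Nags as the exception at 0.57 ± 0.18.

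At day 10 this difference was positive. By RPF it was 1.59 ± 0.42 for Cps1, 1.19 ± 0.28 for Ass1 and 2.90 ± 0.64 for Asl. By RNA it was 1.61 ± 0.40 for Cps1, 1.24 ± 0.29 for Ass1 and 2.54 ± 0.53 for Asl.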

How the results depend on the processing

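No member call reversed under any alternative. DESeq2 left every called member called, as did dropping the filter, requiring 10 counts in every library and, for RNA, counting 1 isoform. Calls were lost by 2 of 107 with RLE size factors, 13 of 107 at 0.05, 20 of 107 with all 24 mice in 1 fit, and 97 of 810 when 1 mouse was left out. The number of called members moved by over 1.5 times as follows. With all 24 mice in 1 fit it was 0 in B and 0 in M at day 4, 3 in B and 1 in M at day 10 and 1 for the difference of the B effect by RPF, 1 by RPF and 2 by RNA for the MYC difference at day 4, and 1 for TE in BM at day 10. At 0.05 it was 1 in M at day 4, 3 in B at day 10 and 2 in BM against M at day 10, by RPF. DESeq2 called 1 in M at day 10 and 1 between the WT days by RPF, and, by RNA, 1 between the WT days and 2 for the difference of the B effect. Without the filter, that RNA difference had 3, and with 10 counts in every library 2. By the RNA of the counted isoform, B at day 4 had 2.

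Same-numbered mice of different genotypes did not deviate together (RPF correlation -0.196 to 0.227, median -0.00, and RNA -0.186 to 0.194, median 0.03, over 36 pairs), so the numbers do not pair them. With the replicate block, BM against M at day 10 had 2 called members by RPF (Otc and Slc25a15). Ass1 by RPF in BM at day 10 lost its call, as 6 of 107 member calls did. For TE, where the block is the mouse, it had 1 in M at day 4, 1 in BM against M at day 4, 1 in BM at day 10 and 1 for the difference of the BM effect.

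Leaving out each mouse in turn gave, by RPF, 0 to 3 called members in B at day 4, 0 to 3 in M at day 4, 6 to 7 in BM at day 4, 2 to 4 in B at day 10, 0 to 2 in M at day 10, 2 to 6 in BM at day 10, 1 to 5 in BM against M and 3 to 6 in BM against B at day 10, 2 to 3 for the B difference, and 5 to 7 and 2 to 4 for the MYC difference at days 4 and 10. By RNA it gave 1 to 3 in B at day 4, 6 to 7 in BM at day 4, 2 to 4 in B at day 10, 4 to 6 in BM at day 10, 3 to 5 and 3 to 4 in BM against M and against B at day 10, 1 to 2 for the B difference, and 4 to 7 and 2 to 4 for the MYC difference. For TE it gave 0 to 2 in BM at day 10, 0 to 1 in BM against B at day 10 and 0 to 1 for the BM difference. The share of the 7 genes in BM at day 10 was 2.73% to 3.84% by RPF and 1.88% to 2.54% by RNA.

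Shares with Alb and the 10 genes of most counts taken out of the total follow in the order WT, B, M and BM. The RPF share was 1.22%, 1.17%, 1.53% and 0.867% at day 4 and 1.49%, 1.25%, 1.62% and 3.35% at day 10. The RNA share was 0.664%, 0.657%, 0.964% and 0.498% at day 4 and 0.970%, 0.818%, 1.01% and 2.26% at day 10. Counts of the gene lists, whose alternatives, like the shares without 1 mouse, were chosen after seeing the data, moved in 338 of 2808 fits without 1 mouse. List counts moved in 78 of 468 with all 24 mice in 1 fit, 54 with the replicate block and 23 with DESeq2. They moved in 20 of 468 without the filter, 15 with 10 counts in every library and 3 with RLE size factors. By the RNA of the counted isoform they moved in 10 of 312. With 3 mice a group, changes near the threshold depended on single mice, and the causes of these shifts were not tested.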

Other observations

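Footprints of several genes outside the cycle followed the split among BM mice at day 10. Pck1, the gluconeogenic enzyme phosphoenolpyruvate carboxykinase, was at 651 RPF CPM in mouse 1 and at 3539 and 3912 in mice 2 and 3. Myc was at 58.1 CPM in mouse 1 and at 121 and 164 in the others. Lgr5, a WNT target, went the other way, at 116 against 46.0 and 29.9 CPM. Otc, in contrast, was low in all 3 of these mice.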
